A study of Homo sapiens with 18 samples.

Results

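The genes described here are 10 serine/arginine-rich (SR) splicing factors, SRSF1, SRSF2, SRSF3, SRSF4, SRSF5, SRSF6, SRSF7, SRSF9, SRSF10 and SRSF11. They were chosen by symbol from the 17017 genes of the deposited count table, and all 10 passed the filter on low counts in the fits over all 3 treatments. The cells are MDA-MB-231, an established human line of triple-negative breast carcinoma, transduced with lentivirus and selected with puromycin. One group of libraries, SC, is read here as the scramble hairpin control. The other groups, SH2 and SH3, carry hairpins against the mRNA of fibrillarin (FBL), the methyltransferase that places 2′-O-methyl groups on ribosomal RNA. All groups share the vector backbone, the selection and a short cycloheximide treatment before lysis. The protocols number the hairpins as knockdowns 1 and 2, without tying either number to SH2 or SH3. Cytoplasmic RNA kept from the lysate (IN) and ribosome footprints from RNase I-digested monosomes (RPF) were sequenced, with 3 libraries for each treatment and kind and 18 in all.

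SR proteins bind exonic sequences through RNA recognition motifs and recruit the spliceosome through a domain rich in arginine and serine repeats. Kinases of the SRPK and CLK families phosphorylate that domain, which sets where the proteins sit in the cell and whether they act in splicing, in mRNA export or in translation. Many SR genes also control their own output, since their transcripts can include an exon with a premature stop codon that sends the mRNA to nonsense-mediated decay. Counts per gene, as used here, do not separate such isoforms.

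Promoters of the 3 members whose RNA was called in both hairpin groups are shown first, because these genes moved in opposite directions: SRSF4 up, and SRSF1 and SRSF10 down. The sequences are from RefSeq (GRCh38.p14), run 5′ to 3′ on the gene's strand, and span 250 bases before to 50 bases from the annotated start. Capitals mark a GC box (GGGCGG) or an ETS core (CCGGAAG), read on either strand. The windows are SRSF4 on the minus strand (chr1:29181851-29182150), SRSF1 on the minus strand (chr17:58007197-58007496) and SRSF10 on the minus strand (chr1:23980278-23980577).
SRSF4: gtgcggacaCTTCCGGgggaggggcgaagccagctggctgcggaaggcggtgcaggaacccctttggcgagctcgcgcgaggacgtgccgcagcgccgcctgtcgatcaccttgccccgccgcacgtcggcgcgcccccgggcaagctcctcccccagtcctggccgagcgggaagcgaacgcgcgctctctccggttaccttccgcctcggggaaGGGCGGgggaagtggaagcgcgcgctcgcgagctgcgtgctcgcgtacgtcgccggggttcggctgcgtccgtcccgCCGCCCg
SRSF1: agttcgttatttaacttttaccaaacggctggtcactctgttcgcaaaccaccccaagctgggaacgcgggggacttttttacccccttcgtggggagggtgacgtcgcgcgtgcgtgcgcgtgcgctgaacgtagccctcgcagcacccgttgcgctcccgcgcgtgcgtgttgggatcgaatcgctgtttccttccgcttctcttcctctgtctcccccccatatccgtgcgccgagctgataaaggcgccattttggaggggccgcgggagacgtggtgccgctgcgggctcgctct
SRSF10: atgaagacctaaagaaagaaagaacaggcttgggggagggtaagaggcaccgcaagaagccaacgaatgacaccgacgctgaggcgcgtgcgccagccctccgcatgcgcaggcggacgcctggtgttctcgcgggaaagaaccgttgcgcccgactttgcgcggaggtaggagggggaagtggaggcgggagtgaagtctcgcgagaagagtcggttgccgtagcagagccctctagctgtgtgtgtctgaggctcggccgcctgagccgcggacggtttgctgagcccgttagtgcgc
The search covered 6 motifs on both strands. These were the TATA box, spelled TATAAA, the CCAAT box, named for its letters, the GC box and the ETS core as above, the E box, spelled CACGTG, and the cAMP response element, spelled TGACGTCA. SRSF4 held 2 GC boxes and 1 ETS core, and SRSF1 and SRSF10 held none of the 6. Of 35116 promoters of the same length, 45% held the GC box, 34.6% the CCAAT box, 11.5% the TATA box, 10.3% the ETS core, 7.26% the E box and 1.85% the cAMP response element. Entries were matched for 9 of the 10 members, all but SRSF2. The GC box was also found in SRSF6, SRSF7 and SRSF11, the ETS core in SRSF5, the TATA box in SRSF3, SRSF7 and SRSF11, and the CCAAT box in SRSF3. These matches describe letters in a window and are not evidence of binding.

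The targeted gene followed the labels. FBL stood at 388 ± 36.4 CPM (counts scaled to library size, mean ± SD, n = 3) in SC RNA, at 5.67 ± 5.09 in SH2 and at 3.49 ± 0.612 in SH3. Total counts ran from 23469830 to 27629488 in IN libraries and from 1662705 to 6098648 in RPF libraries, so low footprint counts limit what can be seen more than RNA counts do. Among markers of the line, VIM lay at 4081 to 7223 CPM, and ESR1 and PGR at 0 to 0.0412 and 0 to 0.0816 CPM in RNA. ERBB2 was not absent (79.2 to 104 CPM), and neither were the luminal keratins KRT8 (402 to 583), KRT18 (469 to 722) and KRT19 (373 to 595). The other luminal genes examined were lower, with CDH1 at 0.038 to 0.449 CPM, EPCAM at 4.9 to 9.1 and GATA3 at 7.6 to 13.2. Mitochondrial genes took 10.7%, 6.38% and 6.31% of IN counts in SC replicates 1 to 3, so SC replicate 1 stood apart. They took 2.52% to 3.30% in SH2 and 3.63% to 5.09% in SH3, and their part in the results below was not tested. The labels do not say whether replicates were separate cultures, so p-values measure the spread between libraries, which may be technical.

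One property of the libraries bears on every comparison of footprints with RNA. Deviations from the group mean over 10335 genes were compared between IN and RPF libraries of the same replicate number. They were negatively correlated for numbers 1 and 2 of SC (r = -0.492 and -0.460 across genes) and of SH2 (-0.303 and -0.308). In both groups IN number 1 went with RPF number 2 (0.573 and 0.561) and IN number 2 with RPF number 1 (0.462 and 0.492). SH3 libraries of the same number went together (0.417, 0.287 and 0.207). Genes are not independent replicates, so these values are a description, and the cause was not tested. No ratio by replicate number is given for this reason.

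In cytoplasmic RNA, SRSF4 was the member with the largest change and the only one called higher than SC in both hairpin groups. SRSF1 and SRSF10 were lower in both, SRSF2 and SRSF7 were called lower in SH3, and SRSF11 was called lower and SRSF5 higher in SH2. The test was edgeR's quasi-likelihood test with Benjamini-Hochberg adjustment over all genes tested, and "called" means an adjusted p under 0.05. In SH2, 5 of 10 members were called, 2 higher and 3 lower, against 61.4% of 12710 genes tested (31.1% higher and 30.4% lower). In SH3, 5 of 10 members were called, 1 higher and 4 lower, against 53.0% of genes (27.8% higher and 25.2% lower). The members' share lay near the share of all genes in each comparison, so being called does not set them apart. Their median log2 change was -0.15 in SH2 and -0.25 in SH3, beside medians over all genes of 0.01 and 0.03. On leaving out 1 library the SH2 median ran from -0.27 (without SC replicate 1) to -0.09 (without SH2 replicate 2), and the SH3 median from -0.30 to -0.20. With plain library totals the medians of the members were -0.065 and -0.16, beside 0.11 and 0.12 over all genes. Both comparisons use the same SC libraries, so they are not independent. In bulk RNA a change in the share of cells that express a gene and a change in RNA per cell cannot be told apart.

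**Figure D1:**
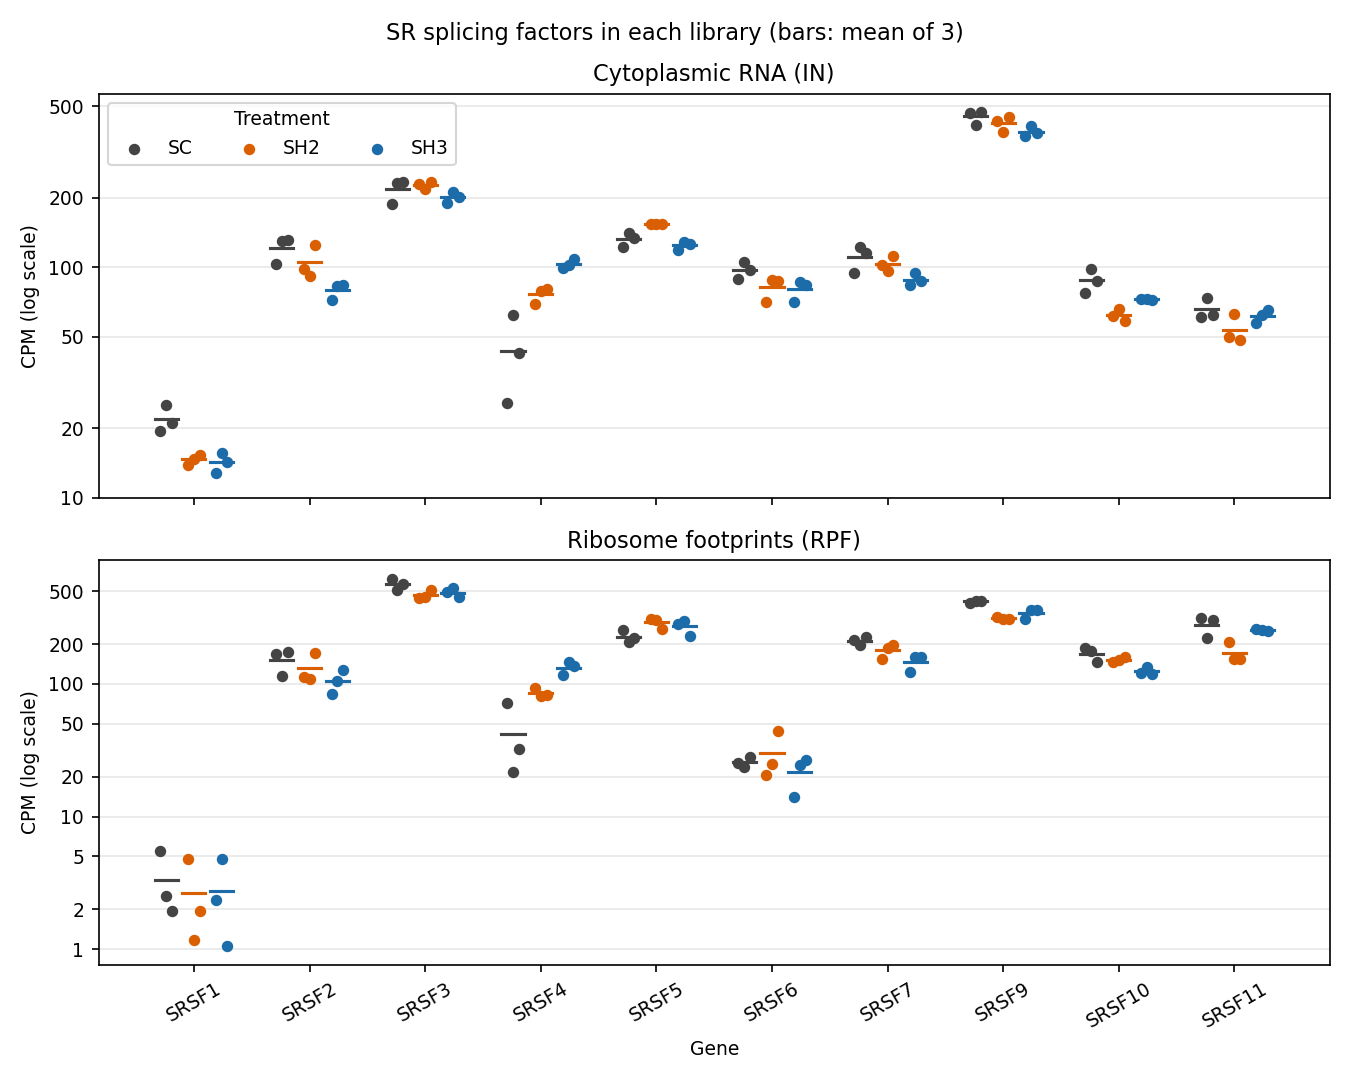
CPM on a log scale in each of the 18 libraries for the 10 members, with cytoplasmic RNA above and footprints below; points are libraries and bars are means of 3. The SC points of SRSF4 are spread from 25.6 to 62.1 CPM in RNA, and all SH2 and SH3 points lie above them. Levels can be compared within a gene only, since no gene lengths were used.

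SRSF4 encodes an SR protein with paired RNA recognition motifs and a long arginine- and serine-rich tail. Its RNA stood at 25.6, 62.1 and 42.4 CPM in SC replicates 1 to 3, at 69.5, 78.7 and 80.1 in SH2 and at 99.5, 102 and 108 in SH3. The SC libraries differed 2.42-fold among themselves, the hairpin libraries lay close together, and neither hairpin group overlapped SC. The log2 change was 0.81 (SE 0.21, edgeR adjusted p = 0.00447) in SH2. In SH3 it was 1.25 (SE 0.21, edgeR adjusted p = 0.00026). Its size rested on which SC library was in the fit. Without SC replicate 1 the log2 changes were 0.52 and 0.97, and without SC replicate 2 they were 1.16 and 1.60, and each was still called. The RefSeq gene spans of SRSF4 and MECR overlap, and MECR RNA differed from SC by -0.51 (edgeR adjusted p = 0.00558) in SH2 and 0.10 (edgeR adjusted p = 0.567) in SH3.

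SRSF1 encodes the founding SR protein, a splicing activator that also acts as a proto-oncogene. Its RNA was 19.5, 25.3 and 21.1 CPM in SC, 13.9, 14.6 and 15.4 in SH2 and 12.8, 15.6 and 14.2 in SH3. All hairpin libraries lay below all SC libraries. The log2 change was -0.59 (SE 0.13, edgeR adjusted p = 0.00119) in SH2. In SH3 it was -0.63 (SE 0.13, edgeR adjusted p = 0.000963). These calls held in each of the 12 alternatives, over which the changes ran from -0.68 to -0.47 and from -0.73 to -0.52.

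SRSF10 encodes an atypical member that, once dephosphorylated, represses splicing. SC libraries held 76.9, 98.3 and 87.3 CPM of its RNA, SH2 libraries 61.2, 66.1 and 58.5, and SH3 libraries 72.5, 72.8 and 72.2. The SH3 libraries were nearly level and lay just under the lowest SC library, while SH2 lay lower still. In SH2 the log2 change was -0.50 (SE 0.10, edgeR adjusted p = 0.000716), a call kept in all 12 alternatives. In SH3 it was -0.27 (SE 0.10, edgeR adjusted p = 0.0356). The SH3 call was lost in 5 of 12 alternatives, among them leaving out SC replicate 2 or 3 (-0.18 and -0.27, edgeR adjusted p = 0.175 and 0.0840) and leaving out SH3 replicate 3 (-0.30, edgeR adjusted p = 0.0607).

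SRSF2 encodes an exon enhancer-binding protein that marks nuclear speckles and is recurrently mutated in myeloid neoplasms. In SC its RNA was 103, 129.7 and 131 CPM. SH2 libraries held 98.4, 91.5 and 124 CPM and overlapped SC, whereas SH3 libraries, at 72.0, 82.4 and 84.0, did not. The SH3 change was -0.61 (SE 0.13, edgeR adjusted p = 0.00127), kept in all 12 alternatives, and the SH2 difference was -0.21 (SE 0.13, edgeR adjusted p = 0.166). SRSF2 and MFSD11 overlap in RefSeq, and MFSD11 RNA moved the other way, by 1.02 in SH2 and 1.11 in SH3 (edgeR adjusted p = 6.97e-05 and 5.41e-05).

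Among the export adapters SRSF3 and SRSF7, which hand spliced mRNA to the export receptor NXF1, only SRSF7 was called in RNA. SRSF7 stood at 94.2, 122 and 116 CPM in SC, 103, 96.3 and 112 in SH2 and 83.9, 93.9 and 86.8 in SH3. SH3 lay just below the lowest SC library, and SH2 lay inside the SC range. The SH3 change was -0.33 (SE 0.11, edgeR adjusted p = 0.0206). That call was lost without SC replicate 2 (-0.25, edgeR adjusted p = 0.0908), without SC replicate 3 (-0.29, edgeR adjusted p = 0.0764) and with plain library totals. SRSF3 RNA ranged from 188 to 234 CPM over the 3 SC libraries and from 189.6 to 235 over the 6 hairpin libraries. Its log2 differences were 0.07 (SE 0.10) in SH2 and -0.11 (SE 0.10) in SH3.

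SRSF5 and SRSF6 share with SRSF4 the paired RNA recognition motifs, and SRSF6 is known for control of alternative exons such as that of tau. SRSF5 RNA was 122, 141 and 133 CPM in SC, and 154.3, 153.7 and 153.6 in SH2, which all lay above SC. SH3 libraries held 118, 128 and 126 CPM and overlapped SC. The SH2 change of 0.22 (SE 0.09, edgeR adjusted p = 0.0392) was the smallest called in RNA and was lost in 8 of 12 alternatives, in 5 of 6 by leaving out 1 library (0.15, edgeR adjusted p = 0.185 without SC replicate 1). SRSF6 lay at 89.1 to 105 CPM in SC, 70.5 to 88.0 in SH2 and 70.9 to 86.6 in SH3. Its libraries did not overlap SC, but with differences of -0.24 and -0.27 it missed the threshold (edgeR adjusted p = 0.0765 and 0.0590). With the replicate number as a block, which pairs SC with SH2 in these data, the SH2 difference was called (-0.25, edgeR adjusted p = 0.0180). The SH2 difference was also called without SC replicate 1 or SH2 replicate 3 (-0.32 each), and in no other alternative. The SH3 difference was called with RLE size factors (-0.30), DESeq2 (-0.30), the block (-0.27) and only the groups compared (-0.31). Leaving out SC replicate 1 (-0.35) or SH3 replicate 2 (-0.36) also gave a call in SH3, and the other alternatives did not.

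SRSF9, a shorter relative of SRSF1, lay at 414 to 473 CPM in SC, 384 to 449 in SH2 and 372 to 408 in SH3. Its differences were -0.10 (edgeR adjusted p = 0.383) and -0.22 (edgeR adjusted p = 0.0661). SH3 libraries lay below all SC libraries. The SH3 difference was called with RLE size factors (-0.25), DESeq2 (-0.24) and only the groups compared (-0.25). Leaving out SC replicate 2 (-0.28) or SH3 replicate 2 (-0.29) also gave a call, and the other alternatives did not. SRSF11, an SR-related protein of the spliceosome, stood at 60.9, 73.6 and 62.2 CPM in SC, 49.6, 62.8 and 48.5 in SH2 and 57.4, 62.2 and 65.0 in SH3. SH2 replicate 2 reached into the SC range, while the other SH2 libraries lay below it. The SH2 change was -0.29 (SE 0.12, edgeR adjusted p = 0.0450), lost in 6 of 12 alternatives, among them leaving out SC replicate 2 (-0.20), SC replicate 3 (-0.33), SH2 replicate 1 (-0.24) or SH2 replicate 3 (-0.25). In SH3 the difference was -0.09 (SE 0.12, edgeR adjusted p = 0.537).

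A direct test of SH2 against SH3 called 2 of 10 members in RNA, both higher in SH2, against 39.3% of genes (18.9% higher and 20.4% lower). SRSF2 was higher in SH2 by 0.40 (SE 0.13, edgeR adjusted p = 0.0247) and SRSF5 by 0.31 (SE 0.09, edgeR adjusted p = 0.0120). The SRSF5 difference was called in all 12 alternatives. The SRSF2 difference was lost without SH2 replicate 3 (0.27, edgeR adjusted p = 0.109) and without SH3 replicate 1 (0.36, edgeR adjusted p = 0.0805). SRSF4 libraries of the hairpin groups did not overlap, yet the difference of -0.44 (SE 0.21) missed the threshold (edgeR adjusted p = 0.110). It was called in 3 of 12 alternatives: with only the groups compared (-0.43, edgeR adjusted p = 0.0028), with a replicate block (-0.45, edgeR adjusted p = 0.0315) and with no filter on low counts (-0.45, edgeR adjusted p = 0.0415). By SH3 change against SC, only SRSF4 among the 10 members was positive. SRSF5 and SRSF11 came next in order, at -0.09 each and not called. The order ended with SRSF7, SRSF2 and SRSF1 (-0.33, -0.61 and -0.63).

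**Figure D2:**
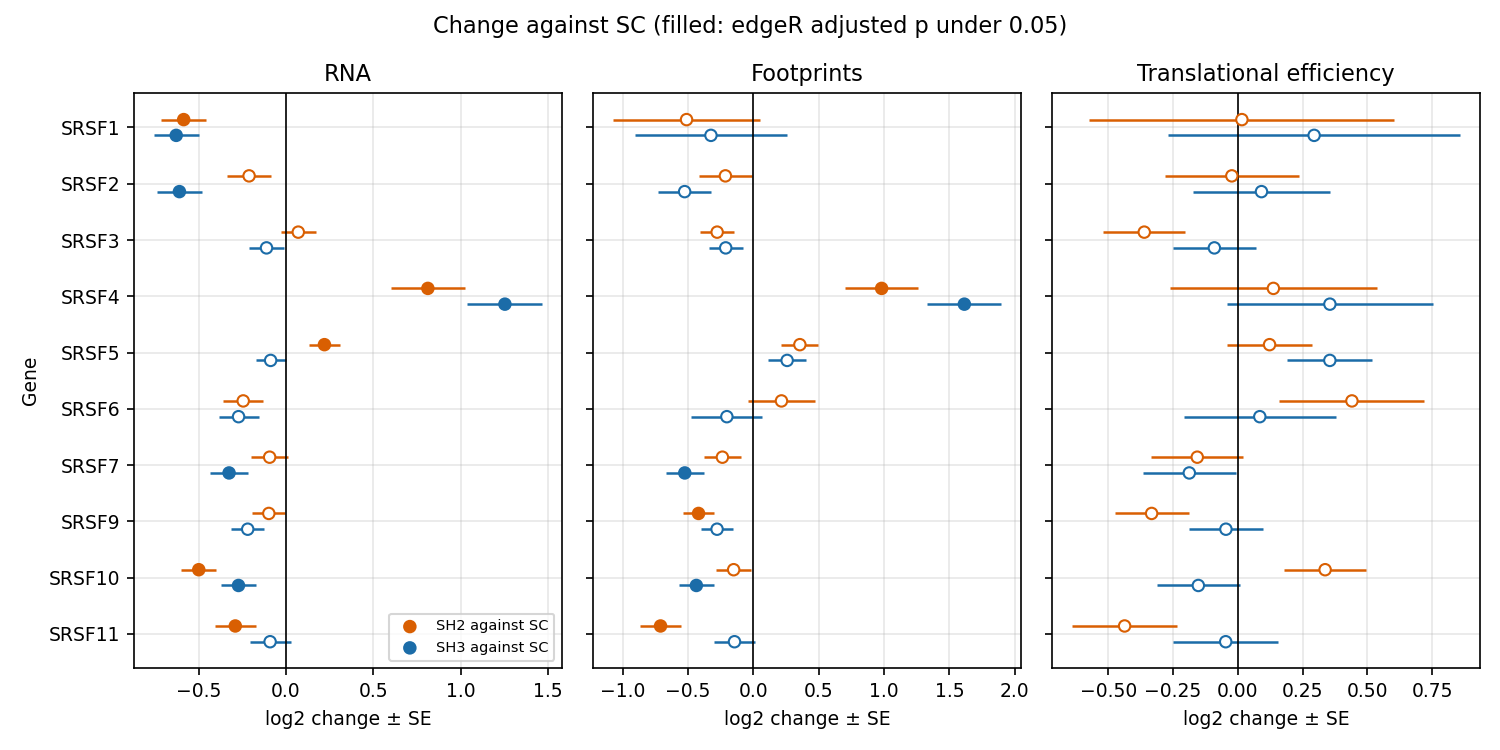
Log2 change against SC for the 10 members in RNA, footprints and translational efficiency, with standard errors as bars and filled points where the edgeR adjusted p was under 0.05. SRSF4 is filled for both hairpins in RNA and footprints, and no point is filled for translational efficiency.

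In ribosome footprints, SRSF4 was again higher in both hairpin groups, and it was the only member called in both hairpins and in both kinds of library. SRSF11 and SRSF9 footprints fell in SH2, and SRSF7 and SRSF10 footprints fell in SH3. In SH2, 3 of 10 members were called, 1 higher and 2 lower, against 44.2% of 10345 genes tested (21.0% higher and 23.2% lower). In SH3, 3 of 10 were called, 1 higher and 2 lower, against 35.9% of genes (16.9% higher and 19.0% lower). The shares of members called were thus not above the shares of all genes. The members' median log2 change was -0.23 in SH2 and -0.25 in SH3, beside -0.0042 and -0.014 over all genes.

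SRSF4 footprints stood at 71.8, 21.5 and 32.5 CPM in SC replicates 1 to 3, from 442, 51 and 183 counts. SH2 libraries held 93.7, 81.1 and 82.9 CPM and SH3 libraries 116, 145 and 137. The SC libraries differed 3.34-fold, with replicate 1 highest and replicate 2 lowest, the reverse of their order in RNA, and no hairpin library overlapped them. The log2 change was 0.98 (SE 0.28, edgeR adjusted p = 0.0101) in SH2. In SH3 it was 1.62 (SE 0.28, edgeR adjusted p = 0.000446), and in SH3 SRSF4 ranked 123 from the top of 10345 genes by change. Leaving out SC replicate 1 gave 1.63 and 2.27, and leaving out SC replicate 2 gave 0.72 and 1.35. Without SC replicate 3 the SH2 call was lost (0.81, edgeR adjusted p = 0.0535).

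Footprints of SRSF11 were 314, 222 and 304.5 CPM in SC, 208, 153 and 155 in SH2 and 259, 255 and 249 in SH3. SH2 lay below every SC library, and SH3 lay inside the SC range. The SH2 change was -0.71 (SE 0.16, edgeR adjusted p = 0.00188), kept in all 12 alternatives, and the SH3 difference was -0.15 (SE 0.16, edgeR adjusted p = 0.501). SRSF9 footprints were tight within groups, at 410, 421 and 425 CPM in SC, 319.9, 309.6 and 309 in SH2 and 308, 364 and 363 in SH3. Neither hairpin group overlapped SC. In SH2 the change was -0.42 (SE 0.12, edgeR adjusted p = 0.0103), kept in all 12 alternatives, and in SH3 the difference of -0.28 (SE 0.12) missed the threshold (edgeR adjusted p = 0.0834).

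SRSF7 footprints lay at 215, 196 and 225 CPM in SC and at 123, 159 and 159 in SH3, with no overlap. The SH3 change of -0.53 (SE 0.14, edgeR adjusted p = 0.00990) was lost without SH3 replicate 1 (-0.41, edgeR adjusted p = 0.0561). In SH2, at 156 to 196 CPM, the difference was -0.24 (edgeR adjusted p = 0.188). SRSF10 footprints fell in SH3 by 0.44 (SE 0.14, edgeR adjusted p = 0.0197), from 186, 177 and 145 CPM in SC to 121, 135 and 119. That call was lost without SC replicate 1, SH3 replicate 1 or SH3 replicate 3 (-0.34, -0.40 and -0.39, edgeR adjusted p = 0.0727, 0.0618 and 0.0834). In SH2, where SRSF10 RNA fell most, its footprints were 147, 151 and 159 CPM, within the SC range, and differed by -0.15 (SE 0.13, edgeR adjusted p = 0.378).

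The remaining members were not called in footprints. SRSF5 differed by 0.36 in SH2 (edgeR adjusted p = 0.0526), with no overlap between SH2 and SC, and by 0.26 in SH3. With the replicate block its SH2 difference was called (0.35, edgeR adjusted p = 0.0285). SRSF2 differed by -0.53 in SH3 (edgeR adjusted p = 0.0553) and SRSF3 by -0.28 in SH2 (edgeR adjusted p = 0.0909). SRSF1 had only 3 to 34 footprint counts per library, and its differences of -0.51 and -0.33 carried SEs of 0.56 and 0.58, so a change of the size seen in its RNA was not detectable at this depth. SRSF6 had 24 to 157 footprint counts per library and differed by 0.21 (SE 0.26) and -0.20 (SE 0.27).

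Between the hairpins, 1 of 10 members was called in footprints, lower in SH2, against 23.8% of genes (12.1% higher and 11.6% lower). This was SRSF11, at -0.57 (SE 0.16, edgeR adjusted p = 0.0172), with all SH2 libraries below all SH3 libraries. The call was lost in 3 cases: without SH2 replicate 2 or 3 (-0.49 each, edgeR adjusted p = 0.0805 and 0.0789) and without SH3 replicate 2 (-0.56, edgeR adjusted p = 0.0594). SRSF4 again did not overlap between SH2 and SH3, with a difference of -0.63 (SE 0.28, edgeR adjusted p = 0.107). That difference was called with only the groups compared (-0.64, edgeR adjusted p = 0.00197) and with no filter on low counts (-0.64, edgeR adjusted p = 0.00347).

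**Figure D3:**
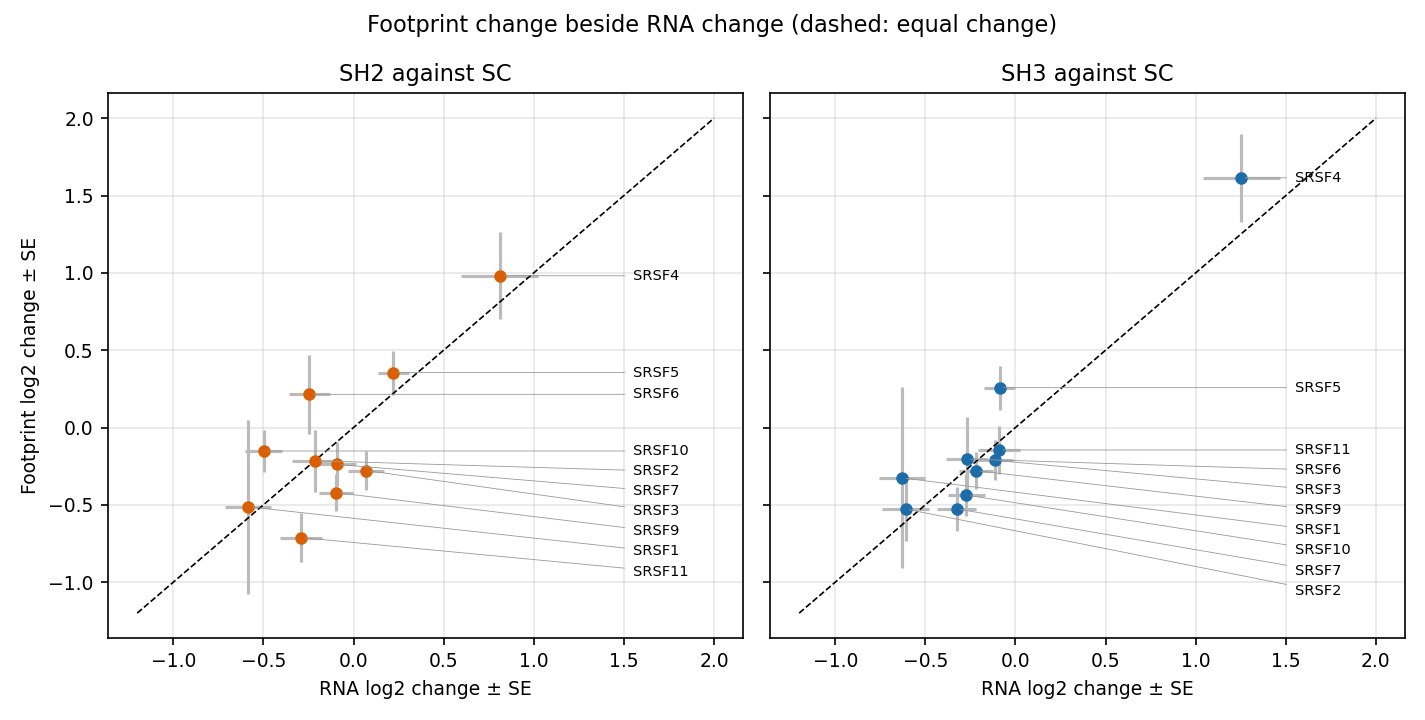
Footprint log2 change against RNA log2 change for each member, in SH2 (left) and SH3 (right), with standard errors as bars and a dashed line where the changes are equal. SRSF4 lies at the upper right in both panels, at 0.81 and 0.98 in SH2 and at 1.25 and 1.62 in SH3.

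Translational efficiency, tested as the footprint change minus the RNA change in 1 fit over all 18 libraries, gave no called member. In SH2, 0 of 10 members were called by edgeR against 3.90% of 12531 genes, with 4 members at an unadjusted p under 0.05. In SH3, 0 of 10 were called against 0.686% of genes, with 1 member at an unadjusted p under 0.05, and between the hairpins 0 of 10 against 0.0160%, with 1 member. DESeq2 also called 0, 0 and 0 members, with 4, 1 and 2 at an unadjusted p under 0.05. The 4 members in SH2 were SRSF11 (-0.44, SE 0.20), SRSF3 (-0.36, SE 0.16), SRSF9 (-0.33, SE 0.14) and SRSF10 (0.34, SE 0.16), with edgeR adjusted p from 0.214 to 0.269. The member in SH3 was SRSF5 (0.36, SE 0.16, edgeR adjusted p = 0.368). Between the hairpins it was SRSF10, 0.49 higher in SH2 (SE 0.16, edgeR adjusted p = 0.216). The share of all genes at an unadjusted p under 0.05 is not given here. By edgeR in SH2, 3 of 9 SR kinases and import factors, 3 of 20 other SR proteins and 9 of 24 hnRNP genes reached that level. So did 8 of 29 core spliceosome genes, 4 of 17 decay genes and 4 of 13 export genes, all from lists described below.

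For SRSF4 the difference in translational efficiency was 0.14 (SE 0.40) in SH2 and 0.36 (SE 0.40) in SH3, and it depended on the SC libraries. Leaving out SC number 1 of both kinds gave 1.07 and 1.29 (edgeR adjusted p = 0.0166 and 0.00679), whereas leaving out SC number 2 of both kinds gave -0.48 and -0.26. Numbers 1 and 2 of SC did not deviate together between IN and RPF, so single libraries were also left out, a choice made after seeing the data. Without SC RPF replicate 1 alone the values were 0.79 and 1.01 (edgeR adjusted p = 0.213 and 0.129), and without SC IN replicate 2 alone -0.21 and 0.020. SRSF11 in SH2 was called without SC number 2 of both kinds (-0.68, edgeR adjusted p = 0.0448), but not without SC RPF replicate 2 alone (-0.59, edgeR adjusted p = 0.0619).

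The ratio of footprint to RNA CPM within SC differed widely among members. Over 10319 genes tested in both kinds the median ratio of geometric means was 0.880. SRSF11 stood at 4.24, above 99.7% of genes, and SRSF3 at 2.61, above 97.4%. SRSF10 (1.94), SRSF7 (1.93) and SRSF5 (1.72) also lay in the upper part, SRSF2 (1.24), SRSF9 (0.930) and SRSF4 (0.906) nearer the middle. SRSF6 stood at 0.264, above 6.98% of genes, and SRSF1 at 0.138, above 1.25%. Which part of the transcript was counted is not given in the sources used here, and footprints fall mainly on coding sequence, so these ratios also move with the length of what was counted. RefSeq lists 13 pseudogenes named after 7 of the members, 5 of them after SRSF3, and none after SRSF4, SRSF5 or SRSF7. How reads that match a gene and a copy were counted is not given in the sources used here, so the levels of those 7 are uncertain to that extent. RefSeq spans of 5 members overlap another gene. Besides SRSF4 and SRSF2 these are SRSF1 (LOC101929185), SRSF5 (LOC100289511) and SRSF9 (GATC), and SRSF2 also overlaps MIR636. Of the overlapping genes, only MECR and MFSD11 were examined.

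Likeness between members was measured as the root mean square difference of log2 profiles over 9 libraries, with 0.5 CPM added and each gene centred on its mean. This difference is also small for genes that vary little, so a low value need not mean that genes moved together. In RNA the closest members were SRSF3 and SRSF5, at 0.083, SRSF7 was closest to SRSF3, at 0.099, and SRSF10 and SRSF11 were closest to each other, at 0.12. SRSF4 was the member farthest from each of the other 9, in RNA and in footprints. Among the genes of the lists described next, the closest to SRSF4 was SRRM2 in RNA (0.34) and SRPK2 in footprints (0.43). ALYREF was closest to SRSF2 in RNA (0.062) and LUC7L3 closest to SRSF10 (0.065).

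Genes that work with SR proteins were counted in 6 lists. Their RNA counts are read against all 12710 genes, of which 61.4% passed the threshold for SH2 and 53.0% for SH3. Rises made up 31.1% of all genes for SH2 and 27.8% for SH3, and falls 30.4% and 25.2%. Of 9 SR kinases and import factors, 2 rose and 3 fell in RNA in SH2, and 4 rose and 2 fell in SH3. SRPK2, a cytoplasmic SR protein kinase, rose by 0.98 and 0.71, and PRPF4B, a kinase of the spliceosome, fell by 0.88 and 0.56. Among 20 other SR and SR-related proteins tested, 7 rose and 4 fell in SH2, and 7 rose and 3 fell in SH3. SRRM2, a scaffold of nuclear speckles, rose by 0.70 and 0.78, and PNN fell by 0.56 and 0.35. Of 24 hnRNP and related repressors, which often oppose SR proteins at exons, 6 rose and 9 fell in SH2, and 6 rose and 6 fell in SH3. HNRNPA1, the classical antagonist of SRSF1, fell by 0.84 and 0.49, and HNRNPF rose by 0.64 and 0.66.

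Of 29 core spliceosome genes tested, 4 rose and 12 fell in RNA in SH2, and 10 rose and 11 fell in SH3. The Sm protein genes SNRPE (-1.23 and -1.08) and SNRPF (-0.97 and -1.02) were lower in both, and PRPF6, of the tri-snRNP, was higher (0.93 and 0.65). In the list of nonsense-mediated decay and the exon junction complex, 5 of 17 rose and 7 fell in SH2, and 8 rose and 4 fell in SH3. The decay helicase UPF1 rose by 0.67 and 0.52, and the junction complex gene MAGOH fell by 0.67 and 0.50. Of 13 mRNA export genes, 1 rose and 5 fell in SH2, and 4 rose and 3 fell in SH3. The helicase gene DDX39B fell by 1.14 and 0.57 and the THO subunit gene THOC7 by 0.83 and 1.18. Every change named in these 2 paragraphs had an edgeR adjusted p under 0.05 in both hairpin groups. Median RNA changes ran from -0.14 to 0.08 over the 6 lists in SH2 and from -0.14 to 0.20 in SH3.

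**Figure D4:**
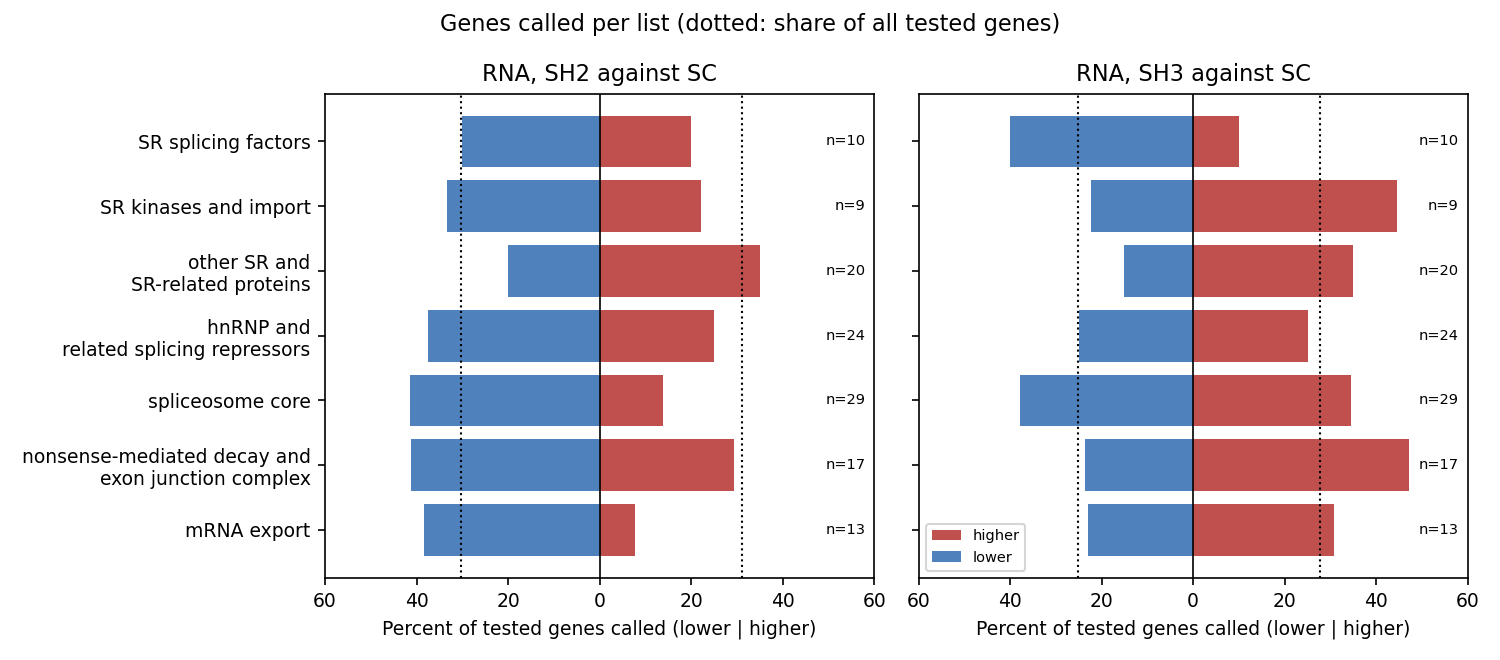
Percent of tested genes in each list that were called higher (right) or lower (left) than SC in RNA, with the number tested at the right and dotted lines at the shares of all 12710 genes. SR splicing factors show 20 and 30 percent in SH2 and 10 and 40 percent in SH3.

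In footprints the lists are read against 44.2% of genes called in SH2 and 35.9% in SH3. Of 9 SR kinases and import factors, 2 rose and 1 fell in SH2, and 3 rose and 0 fell in SH3. Among 20 other SR proteins, 2 rose and 4 fell in SH2, and 6 rose and 0 fell in SH3. The 24 hnRNP genes split into 5 up and 5 down in SH2 and 8 up and 2 down in SH3. Core spliceosome genes were mostly lower where called, with 3 of 28 up and 13 down in SH2 and 5 up and 10 down in SH3. For 17 decay genes the numbers were 3 up and 5 down in SH2 and 4 up and 3 down in SH3, and for 13 export genes 1 up and 4 down, then 2 up and 3 down. SRPK2 footprints rose by 1.01 and 0.88 and SRRM2 footprints by 0.75 and 1.09. In translational efficiency, 4 genes of these lists were called in SH2 and 2 in SH3, named here after their values were seen. Over all 12531 genes tested, 3.90% were called in SH2 and 0.686% in SH3. The SH2 calls were 1 of 9 SR kinases and import factors, 1 of 24 hnRNP genes, 1 of 29 core spliceosome genes and 1 of 13 export genes. In SH3 they were 1 of 9 SR kinases and import factors and 1 of 24 hnRNP genes. The genes were HNRNPA1 (0.79), CHTOP (0.65), TNPO3 (0.58) and SF3B2 (-0.72) in SH2, and DYRK1A (0.82) and HNRNPH2 (0.61) in SH3. HNRNPA1 in SH2 thus had lower RNA and a higher ratio of footprints to RNA, a pattern that no SR splicing factor showed past the threshold.

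The authors' deposited table, from their own DESeq2 comparisons, lists 5 members at an adjusted p under 0.05 in RNA in SH2, 2 higher and 3 lower. In RNA in SH3 the authors' deposited table lists 7, 1 higher and 6 lower. For footprints the authors' deposited table lists 4 members in SH2 and 3 in SH3. The share of all genes passing in that table is not given here, so its counts of members cannot be read as particular to them. By edgeR, 61.4% of all genes tested were called in RNA in SH2 and 53.0% in SH3. In footprints these shares were 44.2% and 35.9%. A further measure there, named RD, holds identical values for SH2 and SH3 in all 17017 genes, lists 0 members, and was not used.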

How the data were processed

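MDA-MB-231 RNA (IN) and footprint (RPF) libraries were described, 3 for each of SC, SH2 and SH3. The deposited table holds raw whole-number counts of reads, gene by library, which were the values tested. Its normalized signal columns are counts divided by size factors, and its log2 fold changes and p-values are the authors' DESeq2 comparisons, per the file headers. Bowtie 1.2.2 and DESeq2 are named in the submitters' processing notes, while genome build, annotation and counting tool are not given in the sources used here. The table's label carries 26 and 30, read as footprint lengths, which the labels do not state. The count columns of all 18 libraries were used, and the normalized signal columns were not tested.

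Counts were fitted with edgeR 4.0.16 in R 4.3.3 (filterByExpr, TMM, glmQLFit and glmQLFTest, group only) over the 9 IN, the 9 RPF or all 18 libraries. Translational efficiency was the interaction contrast. P-values were adjusted by Benjamini-Hochberg over all genes tested, with a threshold of 0.05. Log2 changes and standard errors are from these fits, and CPM values use TMM library sizes. edgeR's common coefficient of variation came to 11.6% for RNA and 15.1% for footprints. The scripts were tested on simulated data. Replicates differed by more than counting noise: chi-square per degree of freedom ran from 3.55 to 58.7 over 18 pairs, so no library was treated as a copy of another. This check cannot tell separate cultures from separate preparations of 1 culture. Replicate numbers were checked as pairs by the correlation, across genes, of deviations from the group means. Same-numbered SC and SH2 libraries deviated together in all 3 pairs (r = 0.369, 0.328 and 0.345 in IN, 0.278, 0.288 and 0.243 in RPF), so the numbers pair these groups. This pairing comes from the data, since the labels do not say what a number shares. Pairs with SH3 went together for some numbers only. In IN, r for numbers 1 to 3 was 0.24, -0.115 and 0.281 with SC, and 0.463, 0.0185 and 0.26 with SH2. In RPF it was 0.0116, -0.0594 and 0.248 with SC, and -0.0137, -0.114 and 0.302 with SH2. The numbers therefore pair SH3 with the other groups only in part. For RNA and footprints the block was fitted over the 9 libraries of a kind. For translational efficiency it was fitted over all 18 libraries and joined IN and RPF of the same treatment and number. For numbers 1 and 2 of SC and SH2 those libraries did not deviate together, so that fit cannot check the main result.

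The members, the 6 lists and the rule for named genes were chosen with earlier results of these data known. All members are named, with FBL as the targeted gene and, in each list, up to 2 genes per direction called in both hairpin groups with the largest mean change. Translational efficiency calls of list genes were named after their values were seen. Alternatives were RLE size factors, plain library totals, no filter, DESeq2 1.42.0, a replicate block, fits of only the groups compared, and leaving out each replicate. Gene spans and pseudogenes are from RefSeq (GRCh38.p14), used for names and neighbours only. U2AF1, PRPF31 and the nuclear-retained RNAs of the marker list were not analysed here.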

Additional observations from a re-analysis of the deposited data

Results flagged for a closer look

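Direct tests of SH2 against SH3 showed 3 differences between the hairpin groups among the SR splicing factors: 2 of 10 in RNA, against 39.3% of all genes, and 1 of 10 in footprints, against 23.8%. These shares of members were below those of all genes. In RNA, SRSF2 was 0.40 higher in SH2 on the log2 scale and SRSF5 was 0.31 higher in SH2, each by edgeR's quasi-likelihood test and with no overlap between the groups' libraries. In footprints, SRSF11 differed by -0.57, lower in all 3 SH2 libraries than in any SH3 library. Of 12 alternatives, the SRSF5 call was lost in 0, the SRSF2 call in 2 and the SRSF11 call in 3.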

How the results depend on the processing

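Directions of all 19 calls among the members held in every alternative run; 10 calls were kept in all 12, and the others were lost in 1 to 8. With plain library totals, 3 members instead of 5 were called in RNA in SH3, while calls over all 12710 genes went from 6732 to 6938. The median over all genes moved from 0.01 to 0.11 (SH2) and from 0.03 to 0.12 (SH3). RLE size factors, DESeq2 and fits of only the groups compared each called 7 members in RNA in SH3, 1 higher and 6 lower, with SRSF6 and SRSF9 added. Over all genes these settings called 6683 of 12710, 6712 of 16851 and 6962 of 12503 in SH3. Fits of only the groups compared called 3 members instead of 5 in RNA in SH2. Over all genes the call there was 7398 of 12599, beside 7805 of 12710 in the main fit. In footprints of SH2 against SH3 they called 2 members instead of 1 (SRSF4 added), as did no filter on low counts. Over all genes these 2 settings called 3019 of 10062 and 2814 of 14514, beside 2459 of 10345 in the main fit. Replicate numbers pair SC with SH2, and pair SH3 with either group only for some numbers. With a replicate block 6, 6 and 3 members were called in RNA, 4, 4 and 1 in footprints, and 0, 0 and 0 in translational efficiency (SH2, SH3, SH2 against SH3). Over all genes the block called 8353, 7396 and 5780 of 12710 in RNA and 5018, 4269 and 3019 of 10345 in footprints. In translational efficiency it called 191, 23 and 0 of 12531. That last fit joined IN and RPF by number, which did not go together for numbers 1 and 2 of SC and SH2, so it is no check of the main result. In SH2 against SC the block added SRSF6 in RNA and SRSF5 in footprints and changed no other call. Where the numbers pair the groups only in part, the block added SRSF6 in RNA (-0.27, edgeR adjusted p = 0.0123) and SRSF2 in footprints (-0.52, edgeR adjusted p = 0.0137) in SH3, and SRSF4 in RNA between hairpins. Leaving out 1 replicate at a time gave 3 to 6, 3 to 7 and 1 to 4 called in RNA, 2 to 4, 1 to 4 and 0 to 1 in footprints, and 0 to 1, 0 to 1 and 0 in translational efficiency. Calls over all genes moved as well. In RNA these fits called 6893 to 7642, 5661 to 6415 and 3726 to 5080 genes, where the main fit called 7805, 6732 and 4993. In footprints they called 3740 to 4807, 2645 to 3771 and 1541 to 2104, where the main fit called 4576, 3719 and 2459. In translational efficiency they called 110 to 555, 10 to 244 and 0 to 1.

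Reversed values concerned members that were not called, and the cause was not tested. With plain library totals, translational efficiency was -0.059 for SRSF1 in SH2 and -0.015 for SRSF7 between hairpins. Leaving out replicates, RNA ran from -0.044 to 0.12 for SRSF3 in SH2, and between hairpins from -0.0017 to 0.13 for SRSF1 and from -0.033 to 0.12 for SRSF6. Footprints of SRSF1 ran from -1.19 to 0.19 in SH2, -1.14 to 0.39 in SH3 and -0.87 to 0.64 between hairpins. Those of SRSF6 ran from -0.16 to 0.42 in SH2 and -0.35 to 0.0064 in SH3, and those of SRSF5 from -0.011 to 0.18 between hairpins. Translational efficiency in SH2 ran from -0.71 to 0.84 for SRSF1, -0.24 to 0.17 for SRSF2, -0.48 to 1.07 for SRSF4 and -0.0074 to 0.29 for SRSF5. In SH3 it ran from -0.50 to 1.12 for SRSF1, -0.13 to 0.29 for SRSF2, -0.22 to 0.094 for SRSF3, -0.26 to 1.29 for SRSF4, -0.043 to 0.20 for SRSF6, -0.096 to 0.025 for SRSF9, -0.26 to 0.030 for SRSF10 and -0.29 to 0.11 for SRSF11. Between hairpins it ran from -0.999 to 0.52 for SRSF1, -0.20 to 0.0083 for SRSF2 and -0.061 to 0.12 for SRSF7. SC libraries were also left out singly, by kind, in translational efficiency, chosen after seeing the data, and no member was called by edgeR in these fits, with 0 to 3 at an unadjusted p under 0.05. Footprint depth limits SRSF1 and SRSF6 most, and in footprint fits of only the groups compared SRSF1 did not pass the filter.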
